A study of Homo sapiens with 12 samples.

Results

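The genes described here are 10 members of the cadherin superfamily, taken by symbol from the table of counts of SW872 cells: the giant atypical cadherins FAT1, FAT2, FAT3 and FAT4, their relatives DCHS1 and DCHS2, and the cadherins CDH2, CDH6, CDH11 and CDH13. They are 10 of the 58735 gene IDs of the table, each with 1 row. The set was chosen by measured values: it was drawn up around FAT3, whose levels moved in opposite directions with the ZZZ3 hairpin in the TC and YT lines. Values of these genes in the shZZZ3 comparisons are therefore given as description, without p values. Of the 10 genes, 9 reached a mean of 5 counts over the libraries and were tested among 18415 genes. CDH6 did not.

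SW872 is a human liposarcoma line. All cells sequenced here stably expressed a fusion protein, TAZ-CAMTA1 (TC) or YAP-TFE3 (YT). Each fusion joins the TEAD-binding end of a Hippo pathway co-activator to the activating end of CAMTA1 or TFE3. Each line also carried the non-targeting hairpin shNT or one that targets YEATS2 or ZZZ3, which are subunits of the ATAC histone acetyltransferase complex. RNA sequencing gave 2 libraries for each of the 6 groups (TC shNT, TC shYEATS2, TC shZZZ3, YT shNT, YT shYEATS2 and YT shZZZ3), and cells without a fusion were not among these groups. According to the study's methods the lines were made by viral transduction and drug selection, with fusion and hairpin under separate selections. The hairpin sequences behind these libraries are not stated in the labels, so no hairpin effect here is shared by 2 known sequences. The study's methods say of its sequencing in general that replicates came from separate transductions with the constructs, and the knock-down libraries are described as biological replicates. Whether the fusion, the hairpin or both were introduced separately for each pair is not given there.

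Cadherins are calcium-dependent adhesion proteins built from repeated extracellular domains. Classical cadherins such as CDH2 (N-cadherin), CDH6 and CDH11 bind like molecules on the next cell and hold catenins with their cytoplasmic tail, whereas CDH13 (T-cadherin) has no such tail and is fixed to the membrane by a lipid anchor. FAT and DCHS proteins are far larger. FAT4 and DCHS1 bind each other across cell contacts, and their relatives in flies act in planar cell polarity and upstream of the Hippo pathway. CDH2 is known as the cadherin of mesenchymal, neural and muscle cells, and CDH1 (E-cadherin) as that of epithelia.

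Total counts lay between 17451893 and 29294805 per library, so that 3 counts, taken as the floor of detection in a library, correspond to 0.106 to 0.173 CPM (counts scaled to library size after TMM normalisation). YEATS2 fell with its hairpin in both lines (log2 fold change -1.54 in TC, adjusted p = 0.0138, and -1.68 in YT, adjusted p = 0.0001045, edgeR), and ZZZ3 fell with its hairpin in YT (-1.51, adjusted p = 0.04531) while its fall in TC was not called (-0.94, adjusted p = 0.4503). ZZZ3 also lay lower in both YT shYEATS2 libraries (31.4 and 30.7 CPM) than in YT shNT (71.2 and 49.1 CPM), which was not called (-0.95, SE 0.417, adjusted p = 0.1297). The libraries labelled TC shNT differed from each other more than other pairs, with a robust SD of the log2 difference over 13258 genes of 0.708, followed by YT shZZZ3 (0.618), against 0.183 to 0.366 in the other 4 pairs. In these 2 pairs the difference followed the GC content of the genes (Spearman rho -0.81 and -0.733 across genes), and its median was 0.3 and 0.191 over 3454 genes with at least 8000 exonic bases. All 10 cadherin genes are of this long kind, with 8583 bases (CDH2) to 21269 bases (FAT4) of exon. Their GC content ranged from 39.98% (CDH6) to 61.86% (DCHS1), and they did not all shift the same way. From replicate 1 to 2 of TC shNT, FAT1 went from 231 to 355 CPM and DCHS1 from 255 to 210 CPM. Mesenchymal markers were high in every library (5601 to 12597 CPM summed over 10 genes, with VIM and FN1 leading), although DCN had at most 3 counts. Markers of other cells were present at lower summed levels, with 296 to 926 CPM for 9 epithelial, 116 to 402 CPM for 8 endothelial, 123 to 344 CPM for 7 adipocyte, 7.23 to 27.9 CPM for 5 neuronal and 0.954 to 4.8 CPM for 5 immune markers. LPL (1575 to 5690 counts) and PPARG (816 to 3093) led the adipocyte list while LEP was at 0, SNAP25 (110 to 558) led the neuronal list while STMN2 was at 0, and CD14 (12 to 93) led the immune list while PTPRC had at most 3 counts.

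The sequences before the transcription starts of 3 of these genes are shown because the genes moved in the contrast that the sections on the YEATS2 hairpin turn on: CDH2 and DCHS2 rose and FAT2 fell. RefSeq windows on GRCh38.p14 were at hand for 4 of the 10 genes (FAT1, FAT2, DCHS2 and CDH2, 6 windows). Each line gives the 250 bases before a start, 5′ to 3′ on the minus strand, which codes for all 3 genes, with CpG dinucleotides in capitals. They lie at chr18:28177131-28177380, chr4:154491800-154492049 and chr5:151591332-151591581.
CDH2: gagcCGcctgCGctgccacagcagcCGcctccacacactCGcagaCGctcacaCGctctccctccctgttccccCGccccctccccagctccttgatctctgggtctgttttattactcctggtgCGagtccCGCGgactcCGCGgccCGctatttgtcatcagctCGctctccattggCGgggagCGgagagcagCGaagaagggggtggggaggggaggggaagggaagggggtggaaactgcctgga
DCHS2: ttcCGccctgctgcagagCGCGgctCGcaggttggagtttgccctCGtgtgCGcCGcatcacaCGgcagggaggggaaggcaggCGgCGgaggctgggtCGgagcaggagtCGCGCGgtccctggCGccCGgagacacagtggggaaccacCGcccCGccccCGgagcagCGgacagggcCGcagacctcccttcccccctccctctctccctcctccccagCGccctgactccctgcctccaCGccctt
FAT2: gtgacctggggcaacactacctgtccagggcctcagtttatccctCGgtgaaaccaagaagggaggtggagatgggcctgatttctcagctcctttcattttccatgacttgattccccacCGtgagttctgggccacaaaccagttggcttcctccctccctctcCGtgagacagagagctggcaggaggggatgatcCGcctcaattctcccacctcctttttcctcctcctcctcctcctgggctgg
The printed stretches of CDH2 and DCHS2 hold 17 and 23 CpG dinucleotides and that of FAT2 holds 4, beside a median of 11 over 35116 promoter windows. At a second start of CDH2, not printed, the 250 bases hold 4, as many as in FAT2. The number of CpG thus did not separate the genes that rose from the one that fell. The first window of FAT1, the most steadily expressed of the 4, holds 32. The whole windows, which add the 50 bases after the start, were searched on both strands for GGAATG (bound by TEAD factors, found in 14% of all windows), CACGTG (bound by TFE3 and its relatives, 7.26%), CAGGTG (bound by SNAI and ZEB factors, 20.6%) and TGANTCA (bound by AP-1, 7.71%). The only match in the 6 windows was 1 TGANTCA at a second start of CDH2. No match says only that these letters are not in these windows.

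Per kilobase of exon, the 10 genes fell into steadily high and low members. FAT1, DCHS1 and CDH13 were the high ones, with group means of 17.7 to 22.7 RPKM (CPM divided by kilobases of exon) for FAT1, 16.3 to 26.8 RPKM for DCHS1 and 15.8 to 39.3 RPKM for CDH13. CDH2 was next, at 0.48 to 8.32 RPKM. FAT3 ranged from 0.00239 to 1.26 RPKM, FAT2 from 0.0652 to 0.9 RPKM and FAT4 from 0.00663 to 0.538 RPKM. DCHS2, CDH11 and CDH6 stayed at or below 0.13 RPKM in every group. FAT1 made up 89.9% to 99.1% of the summed RPKM of FAT1 to FAT4 in every library, so the changes in FAT2, FAT3 and FAT4 described below took place beside a FAT1 level that exceeded them.

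**Figure D1:**
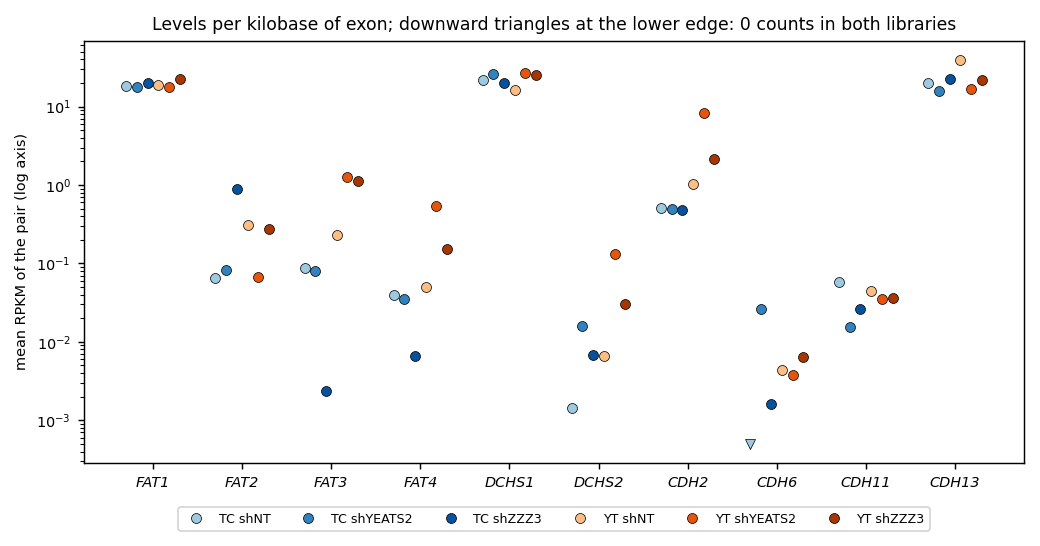
Mean RPKM of each pair of libraries for the 10 genes on a log axis, coloured by group. FAT1, DCHS1 and CDH13 stay within 15.8 and 39.3 RPKM in all groups, while FAT3 and FAT4 span from their lowest values in TC shZZZ3 to their highest in YT shYEATS2.

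The YEATS2 hairpin was compared with shNT first, because the stated reason for choosing the genes concerns the ZZZ3 hairpin. The set was nevertheless drawn up with earlier results of all 12 libraries known. In the YT line 4 of the 9 tested cadherin genes rose (CDH2, FAT4, DCHS2 and FAT3) and 2 fell (FAT2 and CDH13). Of all 18415 genes tested, 20.7% were called in this contrast, 9.61% of them higher and 11.1% lower, counted over all genes, and 8.23% were called without YT shNT replicate 1. Among the 3956 tested genes with at least 8000 exonic bases 23.7% were called. The median log2 fold change was 0.72 over the 9 genes, which is the value of DCHS1, and -0.01 over all genes. DCHS2 passed the filter on low counts only through YT shYEATS2 and so had to differ there.

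**Figure D2:**
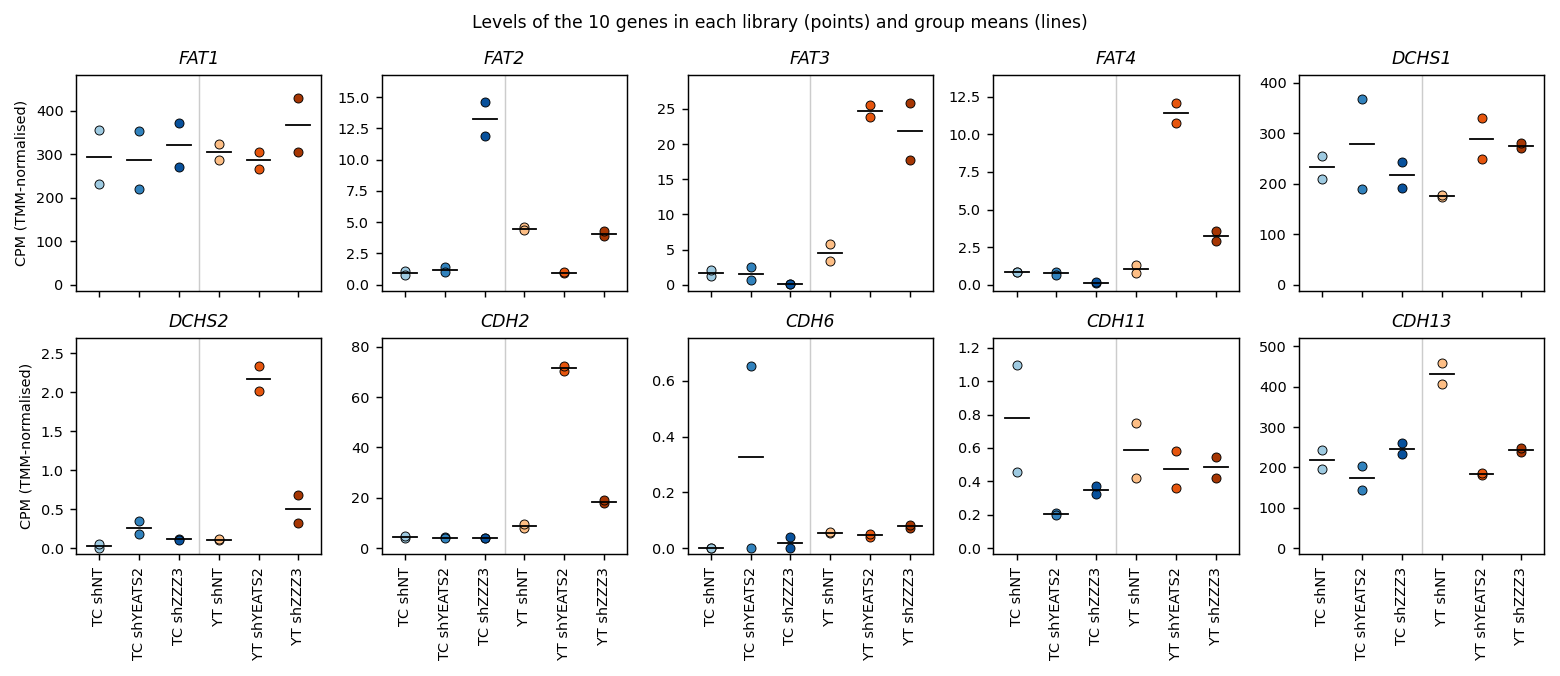
TMM-normalised CPM of the 10 genes in each library (points) with group means (lines), in the TC groups to the left of the grey line and the YT groups to the right. CDH2, FAT4 and DCHS2 stand highest in both YT shYEATS2 libraries, FAT2 in both TC shZZZ3 libraries, and CDH13 in both YT shNT libraries.

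CDH2, the neural cadherin, showed the clearest rise. Its level was 8.08 and 9.72 CPM in YT shNT and 70.3 and 72.5 CPM in YT shYEATS2, an increase with a log2 fold change of 2.99 (SE 0.196, adjusted p = 9.87e-06, edgeR quasi-likelihood test). The groups lay far apart and the libraries of each pair close together. In the TC line it was 4.04 and 4.78 CPM in shNT and 4.41 and 3.97 CPM in shYEATS2, where the pairs overlapped (log2 fold change -0.07, SE 0.209, adjusted p = 1). The effect of the hairpin differed between the lines by 3.06 on the log2 scale (SE 0.286, adjusted p = 0.0001451, interaction in the same fit). With CDH2 up and CDH13 down, CDH2 took 33.2% and 33.4% of the summed RPKM of CDH2, CDH6, CDH11 and CDH13 in YT shYEATS2, against 2.48% and 2.65% in YT shNT and 2.43% and 3.8% in TC shYEATS2. CDH13 still held the larger share, 66.6% and 66.5%.

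FAT4, a receptor of DCHS1 at cell contacts, moved with CDH2. It had 1.32 and 0.805 CPM in YT shNT and 12.1 and 10.8 CPM in YT shYEATS2, a log2 fold change of 3.32 (SE 0.301, adjusted p = 4.207e-05, edgeR). In TC it had 0.839 and 0.86 CPM in shNT and 0.846 and 0.653 CPM in shYEATS2, which overlap (-0.15, SE 0.343, adjusted p = 1). The interaction was 3.47 (SE 0.456, adjusted p = 0.0006948).

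FAT3, a FAT cadherin known from neurons and retina, had 5.81 and 3.34 CPM in YT shNT and 23.8 and 25.6 CPM in YT shYEATS2. Its log2 fold change was 2.41 (SE 0.438, adjusted p = 0.003505, edgeR), and without YT shNT replicate 2 it was 2.09 and no longer called (adjusted p = 0.05402). These YT shNT libraries also entered the contrast that drew attention to FAT3, so this rise is not an independent result for FAT3. In TC its level was 1.30 and 2.10 CPM in shNT and 0.705 and 2.46 CPM in shYEATS2, where the shYEATS2 pair enclosed the control pair (-0.13, SE 0.507, adjusted p = 1). The interaction was 2.54 (SE 0.67, adjusted p = 0.03568) and was not called when counts were scaled by library totals alone (adjusted p = 0.0621). It also lost its call when any 1 library of YT shNT, YT shYEATS2 or TC shZZZ3, TC shNT replicate 2 or TC shYEATS2 replicate 1 was left out (1.91 to 3.0, highest adjusted p = 0.1429 without YT shNT replicate 2).

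DCHS2, a relative of DCHS1, had 2 counts in each YT shNT library and 56 and 39 counts in YT shYEATS2. Per effective library size the ratio was 19.9, with an exact 95% interval of 7.51 to 74.5 that covers counting error only. Since it passed the filter through this group, no p is given. In TC it had 0 and 1 counts in shNT and 5 and 7 counts in shYEATS2 (ratio 11.7, interval 1.73 to 501, adjusted p = 0.436). The interaction was not called (adjusted p = 0.8237), so the rise in YT is not shown to exceed that in TC. Antisense transcripts overlap DCHS2: ENSG00000280241 shares 456 exon bases and had 5 to 28 counts, and ENSG00000278981 shares 1180 and had 0 to 10. How strand entered the counting is not stated. In YT shYEATS2 the first had 25 and 20 counts, and in YT shNT 18 and 17. The second had 0 and 3 counts in YT shYEATS2, and 3 and 10 in YT shNT. Neither rose by as much as DCHS2.

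FAT2, an epithelial FAT cadherin, moved the other way. It fell from 4.59 and 4.37 CPM in YT shNT to 0.916 and 1.03 CPM in YT shYEATS2 (log2 fold change -2.11, SE 0.293, adjusted p = 0.0004049, edgeR). In TC it had 1.11 and 0.812 CPM in shNT and 1.41 and 1.0 CPM in shYEATS2, which overlap (0.31, SE 0.308, adjusted p = 1), and the interaction was -2.42 (SE 0.425, adjusted p = 0.003302). The level in YT shYEATS2 thus lay among those of TC shNT and TC shYEATS2, and a difference between the lines under shYEATS2 was not called (-0.30, SE 0.311, adjusted p = 0.5608).

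CDH13, the lipid-anchored T-cadherin, fell from 408 and 458 CPM in YT shNT to 181 and 185 CPM in YT shYEATS2 (-1.24, SE 0.199, adjusted p = 0.001537, edgeR). In TC the values were 195 and 244 CPM in shNT and 143 and 204 CPM in shYEATS2 (-0.34, SE 0.199, adjusted p = 1). The interaction of -0.90 (SE 0.281) missed the threshold in the main fit (adjusted p = 0.06993, edgeR). It passed with a correction for the GC content of genes (-0.74, adjusted p = 0.03323, edgeR) and in DESeq2 (-0.89, adjusted p = 0.04119). Those fits called 19.5% and 12.2% of all genes in the interaction, against 9.37% in the main fit. With 1 library left out at a time, the interaction of CDH13 ran from -1.11 to -0.60.

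The remaining members were not called in either line. DCHS1, the ligand of FAT4, had 173 and 178 CPM in YT shNT and 249 and 329 CPM in YT shYEATS2 (0.72, SE 0.277, adjusted p = 0.09022, edgeR), both above both controls. It was called when these 4 libraries were fitted alone in edgeR (0.71, adjusted p = 0.000823). In that fit 48.6% of all genes were called, so the call says little about DCHS1. FAT1, the broadly expressed FAT cadherin, had 324 and 286 CPM in YT shNT and 266 and 306 CPM in YT shYEATS2 (-0.09, SE 0.286, adjusted p = 0.8403). CDH11, a cadherin of mesenchyme and bone, stayed between 4 and 23 counts in all libraries, and its largest difference was between 12 and 23 counts in TC shNT and 6 and 4 counts in TC shYEATS2 (-1.53, SE 0.592, adjusted p = 0.4639). CDH6, known from kidney, had 13 counts in TC shYEATS2 replicate 2 and at most 2 in each of the other 11 libraries, so its level rests on 1 library.

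In the TC line 0 of the 9 tested genes passed the threshold with the YEATS2 hairpin in edgeR and in DESeq2. In edgeR 2 of them (DCHS2 and CDH11) had an unadjusted p under 0.05, as had 927 of all 18415 genes. DCHS2 had passed the filter only through YT shYEATS2. Over all genes 0.0434% were called by edgeR in this contrast, so a count of 0 among 9 is near the background. The interaction called 4 of the 9, FAT3, FAT4 and CDH2 as higher and FAT2 as lower in YT relative to TC, where 9.37% of all genes were called (3.53% higher and 5.84% lower).

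**Figure D3:**
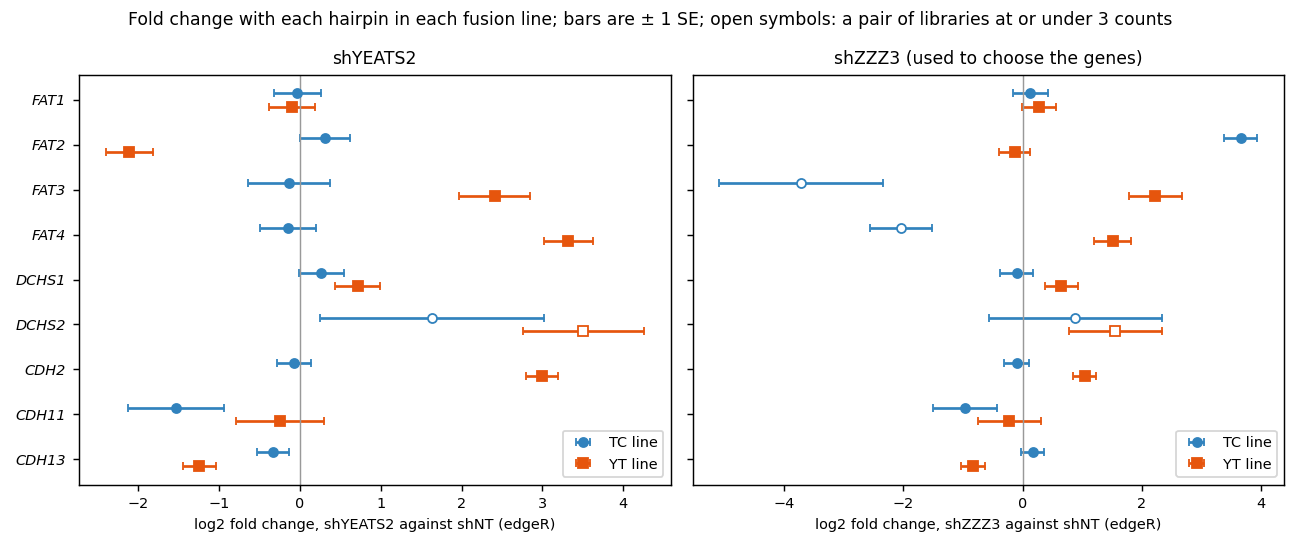
Fitted log2 fold change (edgeR, ± 1 SE) of the 9 tested genes with the YEATS2 hairpin (left) and the ZZZ3 hairpin (right) in the TC and YT lines, with open symbols where a pair of libraries had 3 counts or fewer. With the YEATS2 hairpin the YT values of CDH2, FAT4 and FAT3 lie at 2.99, 3.32 and 2.41, away from TC values near 0. The right side holds the values from which the genes were chosen.

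The YT and TC lines were then compared directly under shYEATS2, in 4 libraries that do not enter the ZZZ3 comparisons. The spread was estimated over all 6 groups, so the SE and adjusted p also draw on the shZZZ3 and shNT libraries. FAT3 was higher in YT shYEATS2, at 23.8 and 25.6 CPM, than in TC shYEATS2, at 0.705 and 2.46 CPM (log2 fold change 3.94, SE 0.467, adjusted p = 0.000391, edgeR). The TC pair was uneven, and the difference was 4.96 or 3.27 with its second or first library left out, called in both cases. CDH2 (4.06, SE 0.2, adjusted p = 9.194e-06) and FAT4 (3.77, SE 0.305, adjusted p = 2.994e-05) were higher in YT as well. DCHS2 had 56 and 39 counts against 5 and 7, and had to differ because only YT shYEATS2 carried it past the filter. With DCHS2, 4 of the 9 genes were called in this contrast, all higher, where 12.2% of all genes were called and 5.65% were called higher. FAT1, FAT2, DCHS1, CDH11 and CDH13 were not called, with fitted differences between -0.30 (FAT2) and 0.94 (CDH11). The sign for FAT1, DCHS1 and CDH13 depended on the scaling or the test.

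Under shNT the lines differed less. FAT2 was higher in YT (4.59 and 4.37 CPM) than in TC (1.11 and 0.812 CPM) by 2.12 on the log2 scale (SE 0.29, adjusted p = 0.0009002, edgeR). CDH2 was higher by 1.0 (8.08 and 9.72 against 4.04 and 4.78 CPM, SE 0.205, adjusted p = 0.01034), and CDH13 by 0.98 (408 and 458 against 195 and 244 CPM, SE 0.199, adjusted p = 0.01116). FAT3 lay higher in both YT libraries, at 5.81 and 3.34 against 1.30 and 2.10 CPM, but was not called (1.40, SE 0.481, adjusted p = 0.08979). It was called in DESeq2 (adjusted p = 0.02701), without the filter on low counts (0.001345) and without TC shYEATS2 replicate 1 (0.03345) or 2 (0.03354). Of the 9 genes 3 were called, all higher, where 9.23% of all genes were called and 5.58% were called higher. This count rests on the pooled spread: with these 4 libraries fitted alone, only FAT2 was called, and the adjusted p was 0.0913 for CDH2 and 0.0614 for CDH13. The count was also 1 without TC shNT replicate 1, YT shNT replicate 1 or YT shNT replicate 2. All contrasts against shNT share these control libraries with the shZZZ3 contrasts.

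The values with the ZZZ3 hairpin follow as description. FAT3 had 1 count in each TC shZZZ3 library (0.0406 and 0.0534 CPM) against 34 and 44 counts in TC shNT, a ratio of 35.9 (exact 95% interval 9.6 to 301, counting error only) in favour of shNT. In the YT line it stood at 17.7 and 25.9 CPM in shZZZ3 against 5.81 and 3.34 CPM in shNT, a log2 fold change of 2.23 (SE 0.438). FAT4 went the same 2 ways, with 3 counts in each TC shZZZ3 library against 22 and 18 counts (ratio 6.13, interval 2.58 to 17.7, in favour of shNT), and with 2.87 and 3.55 CPM in YT shZZZ3 against 1.32 and 0.805 CPM (1.51, SE 0.308). FAT2 rose in TC and changed little in YT. It stood at 11.9 and 14.6 CPM in TC shZZZ3 against 1.11 and 0.812 CPM in TC shNT (3.66, SE 0.282). In the YT line it stood at 3.86 and 4.31 CPM in shZZZ3 against 4.59 and 4.37 CPM in shNT (-0.13, SE 0.258).

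CDH2 had 17.8 and 19 CPM in YT shZZZ3 (1.04, SE 0.197) and 4.02 and 4.22 CPM in TC shZZZ3 (-0.09, SE 0.21). CDH13 had 238 and 248 CPM in YT shZZZ3 (-0.83, SE 0.199) and 233 and 261 CPM in TC shZZZ3 (0.17, SE 0.199). DCHS2 had 9 and 16 counts in YT shZZZ3, a ratio of 4.44 to YT shNT (interval 1.53 to 17.6). In the TC line 3 of 9 genes were past the threshold with shZZZ3 (background 1.53%), in YT 4 (10%) and in the interaction 4 (4.32%), and since the genes were chosen on these contrasts, these counts are no result and nothing is read from them. As description only, CDH2, FAT4 and DCHS2 had shYEATS2 above shZZZ3 and shZZZ3 above shNT in every YT library. The top place of DCHS2 followed from the filter, which it passed only through YT shYEATS2. Both hairpin groups were set against the same YT shNT pair. For FAT3 the YT shYEATS2 and YT shZZZ3 pairs overlapped.

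The genes whose levels were most like those of FAT3 over the 12 libraries, by Pearson's r of log2 CPM among 13257 genes, were PTPRB (r = 0.985), a receptor phosphatase of endothelium, COL8A1 (r = 0.979), a network collagen, IGSF10 (r = 0.944), SERPINE2 (r = 0.941), a secreted protease inhibitor, and SEMA3C (r = 0.937), a secreted semaphorin. Of the members, FAT4 (r = 0.927) and CDH2 (r = 0.811) were the most alike. The most opposite were RARRES1 (r = -0.961), APCDD1 (r = -0.935), an inhibitor of Wnt signalling, and CAMTA1 (r = -0.934). CAMTA1 gives the TC fusion its second part, so its counts include reads of the transgene. It is higher in TC than in YT by design. Within TC it also differed, with means of 66.3 CPM in shNT, 94.3 CPM in shYEATS2 and 145.5 CPM in shZZZ3. Whether the level of the fusion differed between the TC groups was not tested. By Spearman's rho the values for these 8 genes were 0.930 to 0.986 in size. The points share 6 groups of libraries, so the coefficients mostly order group means and carry no test.

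**Figure D4:**
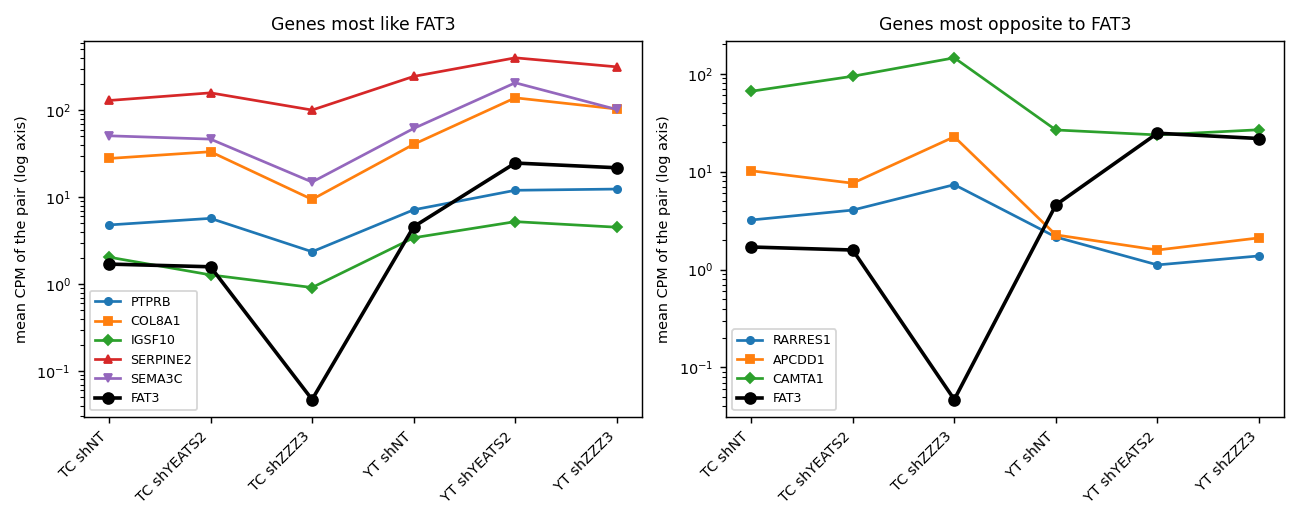
Mean CPM by group on a log axis for FAT3 (black) with the 5 genes most like it (left) and the 3 most opposite (right); lines join the means of each gene for reading only. FAT3 falls to 0.047 CPM in TC shZZZ3 and reaches 24.7 CPM in YT shYEATS2.

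The other genes of cadherin adhesion were taken as lists: 15 further classical and type II cadherins (9 tested), 12 catenins and other proteins of the cadherin tail (10 tested), 20 partners of FAT and DCHS and planar polarity genes (19 tested) and 6 transcription factors known for switching cadherins (6 tested). With the YEATS2 hairpin in TC, 0 genes of the 4 lists were called. In YT the cadherin list had 1 gene called higher and 2 lower (median log2 fold change -0.41), the catenin list 0 and 2 (-0.11), the FAT and DCHS partners 2 and 2 (0.24), and the transcription factors 1 and 2 (-0.31), beside the 20.7% of all genes called and a median of -0.01.

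Among the further cadherins CDH12, a type II cadherin of brain, went down where CDH2 went up. It had 108 and 105 counts in YT shNT and 2 in each YT shYEATS2 library, a ratio of 63.6 (interval 24.5 to 236; adjusted p = 1.634e-05, edgeR). In the TC line it averaged 1.08 CPM in shNT and 1.62 CPM in shYEATS2, and the interaction was called (adjusted p = 0.0001088). CDH22 had 9 and 6 counts in YT shNT and 1 and 0 in YT shYEATS2 (ratio 17.9, interval 2.76 to 754, adjusted p = 0.04563). CDH24 rose by 0.72 (SE 0.223, adjusted p = 0.04218), from a mean of 26.5 to 43.6 CPM. CDH5, the cadherin of endothelium, was lower in YT shYEATS2 than in TC shYEATS2 (-2.34, SE 0.399, adjusted p = 0.003469). CDH1 stayed at 1 to 17 counts in every library.

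The main catenins of the classical cadherin tail were abundant in all groups. CTNNB1 lay at 425 to 539, CTNNA1 at 448 to 641 and CTNND1 at 408 to 560 mean CPM. None of these 3 was called in a YEATS2 contrast. CTNNA2, the alpha-catenin of neurons, had 33 and 30 counts in YT shNT and 1 in each YT shYEATS2 library (ratio 37.6, interval 9.99 to 318). It passed the filter only through YT shNT and so had to differ there, and no p is given. AFDN, a junction adaptor, fell by 1.08 (SE 0.229, adjusted p = 0.007343). Of the polarity genes PRICKLE1 rose by 1.11 (SE 0.273, adjusted p = 0.01447) and LIX1L by 0.49 (SE 0.158, adjusted p = 0.04821), while FZD3, a Wnt receptor, fell by 1.43 (SE 0.335, adjusted p = 0.01272) and ENAH, an actin regulator, fell by 1.01 (SE 0.251, adjusted p = 0.01674).

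Of the transcription factors TWIST1, known to accompany CDH2 in mesenchymal cells, rose in YT shYEATS2 by 1.98 (SE 0.267, adjusted p = 0.0004516), from a mean of 2.54 to 10.3 CPM, and its interaction was 2.49 (SE 0.377, adjusted p = 0.001712). SNAI2 fell by 1.2 (SE 0.199, adjusted p = 0.001737) and ZEB2 fell by 1.18 (SE 0.293, adjusted p = 0.01685), and SNAI1, ZEB1 and TWIST2 were not called. The list thus held changes in both directions. Of the mesenchymal markers VIM (1.47, SE 0.228, adjusted p = 0.001295, edgeR) and THY1 (1.42, SE 0.38, adjusted p = 0.02344) rose in YT shYEATS2. COL6A3 (-2.44, SE 0.235, adjusted p = 8.478e-05) and PDGFRB (-1.15, SE 0.25, adjusted p = 0.008465) fell.

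Marker lists of other cells also moved between YT shNT and YT shYEATS2, and their part in the results was not tested. The 5 neuronal markers summed to 27.7 and 27.9 CPM in YT shYEATS2 against 7.76 and 9.61 CPM in YT shNT, carried by SNAP25 (mean 6.81 to 22.7 CPM) and TUBB3 (1.61 to 4.49 CPM), both called higher, whereas RBFOX3 had at most 2 counts and STMN2 0. The immune markers summed to 4.37 to 4.8 CPM against 1.15 to 1.16 CPM, with CD14 called higher (mean 0.743 to 4 CPM). The adipocyte list was lower, at 160 to 168 CPM against 229 to 235 CPM, with CEBPA called (-3.56), and so was the endothelial list, at 116 to 124 CPM against 141 to 150 CPM, with ERG called (-3.33). The epithelial sums overlapped, and ESRP1 (-1.61) and KRT8 (-1.82) were called lower. In bulk RNA, fewer cells that express a gene and less RNA per cell cannot be told apart.

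The nearest tested protein-coding genes on either side of the 9 genes were examined to see whether their surroundings moved too. Of the 18 neighbours, 2 were called higher and 4 lower in YT shYEATS2 against YT shNT, where 20.7% of all genes were called. Next to FAT3 (chromosome 11, 92224818 to 92896473, plus strand) CHORDC1 fell (-1.18) and SLC36A4 was not called (-0.82). Next to CDH2 (chromosome 18, 27932879 to 28177946, minus strand) KCTD1 rose (0.73) and the desmosomal cadherin gene DSG2, at 3320231 bases, fell (-6.98). Next to FAT4 (chromosome 4, 125314918 to 125492932, plus strand) INTU fell (-1.17) and ANKRD50 was not called (-0.09). For these 3 genes no neighbour changed by a similar amount in the same direction. These neighbours lay 247701 (SLC36A4) to 3320231 (DSG2) bases away, so whether closer surroundings moved was not tested.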

How the data were processed

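The 10 genes and the other gene lists were chosen with earlier results of these data known. The authors deposited a table of whole-number counts, 1 row per gene ID, made from paired-end libraries of a stranded mRNA kit: according to the study's methods, reads were run through bcbio-nextgen and aligned with HISAT2 to hg38 with Ensembl annotation, and Salmon and tximport are also named, without saying which gave these counts. The submitters' processing notes name bcl2fastq. Positions and exon lengths came from GENCODE release 44, which held 99.1% of the gene IDs. Samples were grouped from the labels alone.

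Counts were normalised by TMM, 18415 genes whose mean reached 5 counts were kept, and edgeR (version 4.0.16, R version 4.3.3, quasi-likelihood, robust, prior count of 2) fitted all 6 groups with 6 residual degrees of freedom. Tests were two-sided, Benjamini-Hochberg adjusted over all genes tested, with calls under 0.05. An interaction is the hairpin effect in YT minus that in TC. RPKM is CPM per kilobase of merged exons. A pair with at most 3 counts per library is given as a ratio of summed counts with an exact 95% (Clopper-Pearson) interval. Alternatives were 10 settings of normalisation, filter, model and tool (DESeq2 version 1.42.0 among them) and each library left out. The fit was tested on simulated data.

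Total counts are given with the results, and intervals and floors cover counting error only. Named were all 10 genes; of the other lists the called, non-overlapping genes with the largest changes (up to 3 per list, comparison and direction) in comparisons not used to choose the 10; the 5 genes most like and the 3 most opposite to FAT3; and the hairpin targets. CDH1, LPL, PPARG, the uncalled catenins and transcription factors, the marker genes at or near 0, FN1, the antisense transcripts of DCHS2 and the neighbouring genes were named after their values were seen.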

Additional observations from a re-analysis of the deposited data

Results flagged for a closer look

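The effect of the YEATS2 hairpin differed between the YT and TC lines, by the interaction test in edgeR, for 4 of the 9 tested genes: FAT2 (-2.42), FAT3 (2.54), FAT4 (3.47) and CDH2 (3.06), as log2 of the effect in YT over that in TC. In YT both libraries lay on the same side of both controls for each of the 4, and in TC the pairs overlapped. The difference for FAT3 uses the TC shNT and YT shNT libraries on which FAT3 was chosen, so it is not independent of that choice, and its call was lost in 9 of 22 alternative settings.

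With the ZZZ3 hairpin both libraries moved down in TC and up in YT for FAT3 and FAT4. FAT2 rose in TC (3.66, SE 0.282). In YT it lay only just below both controls (-0.13, SE 0.258). The fitted differences were -3.79 for FAT2, 5.94 for FAT3 and 3.55 for FAT4 on the log2 scale, and those of FAT3 and FAT4 depend on the prior count because TC shZZZ3 held 1 and 3 counts per library. No p is given for these differences, since this contrast served to choose the genes.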

How the results depend on the processing

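With 2 libraries per group the spread of a group is poorly known, and values near 3 counts are limited by depth. Of the counts of called genes, that of YT shNT against TC shNT moved from 3 to 1 when this contrast was fitted alone. With each library left out in turn the counts ranged from 1 to 4 for YT shNT against TC shNT, 5 to 7 for YT shYEATS2 against YT shNT, 3 to 4 for the YEATS2 interaction, 1 to 3 for TC shZZZ3, 1 to 4 for YT shZZZ3 and 3 to 5 for the ZZZ3 interaction. They stayed at 0 for TC shYEATS2 and 4 for YT shYEATS2 against TC shYEATS2. Leaving a library out leaves a lone sample, assumed to vary like the other groups.

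In YT shYEATS2 against TC shYEATS2 the difference of FAT1 changed sign with DESeq2 size factors (0.00882), in DESeq2 (0.00875), with the contrast fitted alone (0.00967), with a replicate block (0.0247) and with block and GC correction (0.0115). That of DCHS1 became -0.0367 with library totals and -0.0306 with the GC correction, and that of CDH13 became -0.0103 with library totals. The cause was not tested. With libraries left out, uncalled values changed sign within these ranges: in TC shYEATS2 FAT1 -0.43 to 0.30, FAT3 -1.18 to 0.50, CDH2 -0.19 to 0.038 and DCHS1 -0.31 to 0.65; in YT shYEATS2 FAT1 -0.19 to 0.017 and CDH11 -0.56 to 0.16; in the YEATS2 interaction FAT1 -0.38 to 0.35; between the shNT lines FAT1 -0.25 to 0.37, FAT4 -0.091 to 0.55 and CDH11 -0.85 to 0.27; between the shYEATS2 lines FAT1 -0.31 to 0.37, DCHS1 -0.36 to 0.60 and CDH13 -0.16 to 0.35.

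Replicate numbers were not taken to pair the samples, since the labels give no shared origin and the correlation of deviations was not over 0.1 in every pair of groups. Over 15 pairs of groups it ran from -0.438 to 0.898, with 7 over 0.1, which include every pair among the TC groups and YT shZZZ3. With the replicate block the YEATS2 interaction called 5 genes (CDH13 joined, adjusted p = 0.02948) and YT shNT against TC shNT called 4 (FAT3 joined, adjusted p = 0.04906). It changed no other call among the YEATS2 contrasts and the comparisons of the lines.

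Over all genes, calls moved by over 1.5 times as follows. TC shYEATS2 had 8, with 28 under the block, 55 with the GC correction, 119 with both, 117 in DESeq2, 213 without the filter and 2 fitted alone. TC shZZZ3 had 281, with 679, 965 (both), 532 in DESeq2, 744 without the filter, 171 at a mean of 50 counts and 155 fitted alone, where 679 is the GC correction. With the GC correction and with both, YT shZZZ3 went from 1846 to 3791 and 4533, the YEATS2 interaction from 1725 to 3595 and 4326, the ZZZ3 interaction from 795 to 1946 and 2532, YT shNT against TC shNT from 1699 to 3407 and 4123, and YT shYEATS2 against TC shYEATS2 from 2242 to 4453 and 5217. YT shYEATS2 went from 3821 to 6511 with both and 8784 fitted alone. Without the filter the YEATS2 interaction had 2611, the ZZZ3 interaction 1549 (1274 in DESeq2) and YT shNT against TC shNT 2710 (994 fitted alone). Library totals moved the median of all genes to -0.111 in YT shYEATS2 against TC shYEATS2. With 1 library left out, calls ranged from 0 to 77 in TC shYEATS2, 50 to 498 in TC shZZZ3, 1516 (without YT shNT replicate 1) to 5069 in YT shYEATS2, 501 (without YT shNT replicate 2) to 2577 in YT shZZZ3, 789 (without YT shYEATS2 replicate 1) to 3029 (without TC shNT replicate 2) in the YEATS2 interaction, 206 to 1144 in the ZZZ3 interaction, 470 (without YT shNT replicate 2) to 3112 (without TC shNT replicate 2) between the shNT lines and 841 (without YT shYEATS2 replicate 1) to 2972 between the shYEATS2 lines.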
